A study of Arabidopsis thaliana with 4 samples.

Results

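The aliphatic glucosinolate synthesis genes were taken from the gene count table by their identifiers and comprised 10 of its 32833 genes: MYB28 (AT5G61420), MYB29 (AT5G07690), MYB76 (AT5G07700), BCAT4 (AT3G19710), MAM1 (AT5G23010), MAM3 (AT5G23020), CYP79F1 (AT1G16410), CYP79F2 (AT1G16400), CYP83A1 (AT4G13770) and FMO GS-OX1 (AT1G65860). They were measured in 4 libraries of polyA-selected mRNA from whole Arabidopsis thaliana seedlings, 7 days old, raised on MS medium that held sucrose and left untreated. The wild type was Col-0 (replicates 1 and 2), and the other genotype, called the mutant here, was MAC3B Q77A/D81A-GFP (replicates 1 and 3). The mutant carries a GFP-tagged MAC3B with both substitutions. MAC3B is a U-box ubiquitin ligase, a plant homologue of yeast Prp19 that works with the spliceosome. The 4 samples include no line with an unmutated MAC3B-GFP, and the promoter of the transgene, the background it was placed in and the number of independent lines were not stated in the sources used here. The titles of both mutant samples share a number that precedes the replicate number, and its meaning is not given. Both may therefore come from a single line. The labels do not say whether replicates were grown separately, so p-values here reflect no more than the spread among these samples.

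Aliphatic glucosinolates are sulfur-rich defence compounds of Arabidopsis and its relatives, made from methionine. The side chain of methionine is first lengthened, mostly in the chloroplast, the amino acid is then turned into the glucosinolate core by cytochrome P450 enzymes and later steps, and the side chain is finally modified. MYB factors with overlapping roles switch the genes of the whole route on together, and a separate set of MYB factors and P450 enzymes makes the indolic glucosinolates from tryptophan.

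All 10 genes had a higher mean level in the mutant, where 50.1% of all genes tested had a positive log2 fold change, and 3 passed the test: MYB29, CYP79F1 and CYP83A1 rose, and none fell. Their fold changes were close to each other, at 1.92 for MYB29, 1.94 for CYP79F1 and 1.91 for CYP83A1. The test was edgeR's quasi-likelihood test with a Benjamini-Hochberg adjusted p under 0.05 over all 20483 genes tested, and it called 3.01% of those genes, 1.68% higher and 1.33% lower. The median log2 fold change of the 10 genes was 0.51, against 0.00 over all genes tested. Both mutant libraries lay above both wild-type libraries for 9 of the 10 genes, against 22.3% of all genes tested, and below them for 0 of the 10, against 22.4%. The exception was BCAT4. An unadjusted p under 0.05 with a higher level was found for 9 of the 10, all but MYB76, and for 7.54% of all genes tested. The 10 genes were chosen with earlier results of these data known, so these shares describe them and are no test of the set. The other 7 genes had log2 fold changes from 0.27 (MAM1) to 0.65 (FMO GS-OX1) and did not pass. In seedlings sequenced whole, more RNA per cell and more cells that express a gene cannot be told apart.

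The libraries held 23436163 to 30105517 counted fragments, and levels are given in CPM, counts scaled to a common library total with TMM factors. MAC3B itself had wild-type levels of 156 and 162 CPM and mutant levels of 1147 and 947 CPM. The mutant replicates differed more than the wild-type replicates did, the chi-square per gene being 10.54 against 4.44. Of 18 marker genes of tissues in a seedling, 4 fell and 0 rose, against 1.33% and 1.68% of all genes tested. The summed level of 4 leaf mesophyll markers was 42680 to 43772 CPM in wild type and 35237 to 38635 CPM in the mutant. That of 6 root markers was 127 to 133 CPM in wild type and 143 to 147 CPM in the mutant, that of 3 phloem markers 262 to 281 CPM and 227 to 235 CPM, and that of 3 guard and myrosin cell markers 1701 to 1988 CPM and 1315 to 1556 CPM. The 2 seed reserve genes together stayed at 0.779 to 6.18 CPM in wild type and 2.34 to 2.76 CPM in the mutant. These sums hide differences among markers, and the 4 that fell were LHCB1.3, SWEET11, TGG1 and TGG2. None of the 6 root markers passed, the groups were apart for 2 of them, and COBL9 was at -0.14 on the log2 scale. The phloem marker APL was at -0.03. TGG1, at a wild-type mean of 1687 CPM, made up most of the guard and myrosin sum, and FAMA overlapped between genotypes. The part of these marker differences in the changes of the glucosinolate genes was not tested.

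**Figure D1:**
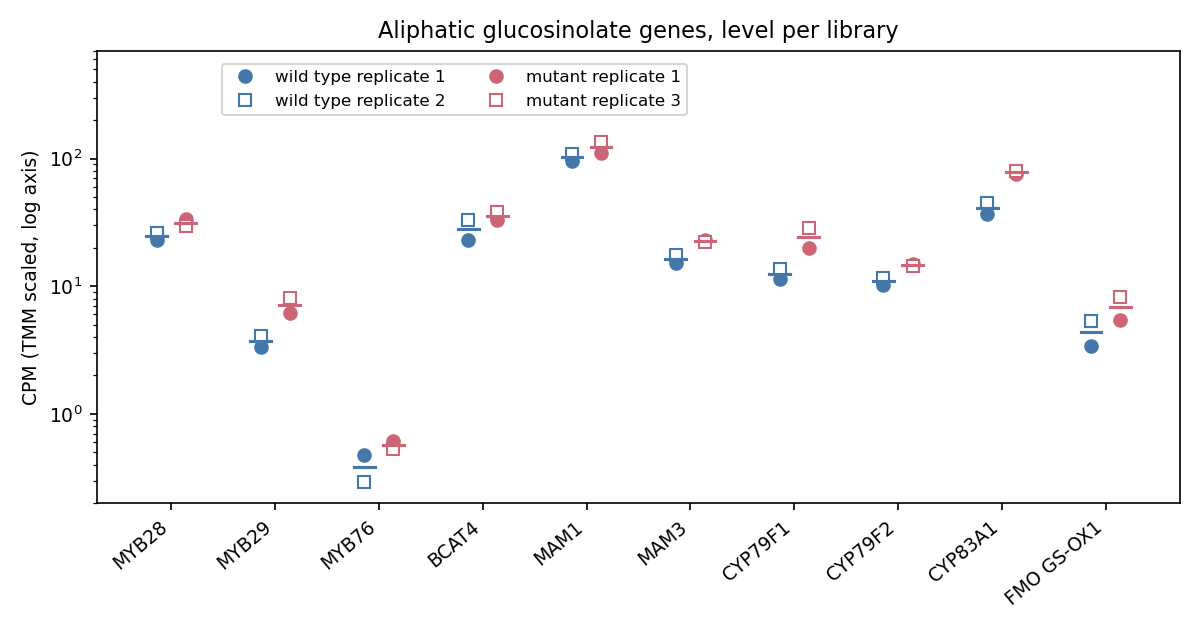
Level of each of the 10 genes in CPM (log axis) in the 4 libraries, with 1 marker per library and a bar at the mean of each genotype. The mutant libraries lie above the wild-type libraries for every gene except BCAT4, and the gap is widest, relative to the level, for MYB29, CYP79F1 and CYP83A1.

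Gene positions below are those of the count table on the TAIR10 build. Among the activators, MYB29 (chr5:2446669-2448584, plus strand), which is also responsive to jasmonate, had wild-type levels of 3.33 and 4.09 CPM and mutant levels of 6.21 and 8.03 CPM in replicates 1 and 3. The groups did not overlap, and the lowest mutant library was above the highest wild-type library. On the log2 scale it rose by 0.94, with SE (the standard error) 0.247 and 2 libraries per genotype (edgeR, Benjamini-Hochberg adjusted p = 0.0414). Leaving out any library but mutant replicate 1 ended the call, since the edgeR adjusted p was 0.372 when wild type replicate 1 was dropped, 0.102 when wild type replicate 2 was, 0.00332 for mutant replicate 1 and 0.127 for mutant replicate 3. DESeq2 gave an adjusted p of 0.0869.

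MYB28 (chr5:24689069-24691187, minus strand), the activator with the broadest effect on aliphatic glucosinolates, was the most abundant of the 3 MYB genes. Its libraries had wild-type levels of 23.1 and 26.2 CPM and mutant levels of 33.3 and 29.4 CPM, so the groups were apart, by less relative to the level than for MYB29. Its log2 fold change was 0.34 (SE 0.117, 95% interval 0.10 to 0.59; edgeR, Benjamini-Hochberg adjusted p = 0.132), and it passed without mutant replicate 3 (0.43, adjusted p = 0.0183). MYB76 (chr5:2450027-2451807, plus strand), the third activator and the neighbour of MYB29 on chromosome 5, was close to the limit of detection. Its counts were 11 and 7 in the wild-type libraries against 15 and 16 in the mutant ones, and its log2 fold change of 0.57 had a 95% interval from -1.03 to 2.16 and ranged from 0.26 to 0.95 with a library left out. At this depth neither a change nor its absence was detectable for MYB76.

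Per kilobase of exon, MYB28 stood 6.07 and 5.61 times as high as MYB29 in wild type, against 4.69 and 3.20 times in mutant replicates 1 and 3. The ratio was lower in both mutant libraries, with a two-sided exact permutation p of 0.333, the smallest that 2 libraries against 2 allow. MYB29 over MYB76 was 6.21 and 12.4 in wild type, against 8.93 and 13.5 in the mutant, and these ranges overlapped (exact permutation p = 0.667). Ratios of 4 gene pairs were compared in all, and the exact permutation test cannot pass a threshold of 0.05 with this number of libraries.

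Of the 3 genes of chain elongation, none passed. BCAT4 (chr3:6846969-6849582, minus strand), the aminotransferase that starts the route by removing the amino group of methionine, had wild-type levels of 22.8 and 32.9 CPM and mutant levels of 32.7 and 38.1 CPM. The groups overlapped, since wild type replicate 2 was just above mutant replicate 1. Its log2 fold change was 0.35 (SE 0.137; edgeR, Benjamini-Hochberg adjusted p = 0.220), and it moved with each library. It passed when wild type replicate 2 (0.63, edgeR adjusted p = 0.0277) or mutant replicate 1 was dropped (0.45, adjusted p = 0.0101), and was lower when wild type replicate 1 (0.11, adjusted p = 0.909) or mutant replicate 3 was (0.23, adjusted p = 0.310). Exons of BCAT4 share 307 bases, 21.2% of its exon length, with AT3G19700 on the other strand, and the counts were made without regard to strand. None of the other 9 genes shares exon bases with another gene.

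MAM1 (chr5:7703041-7706973, plus strand) and MAM3 (chr5:7718118-7721866, plus strand) are methylthioalkylmalate synthases, which add the acetyl unit in each round of elongation. MAM1 had wild-type levels of 95.6 and 108 CPM and mutant levels of 112 and 134 CPM. MAM3, which accepts a wider range of chain lengths, had wild-type levels of 15.3 and 17.6 CPM and mutant levels of 23.1 and 22.1 CPM. Both genes had separate groups, with a larger gap for MAM3. The log2 fold changes were 0.27 for MAM1 (SE 0.0925; edgeR, Benjamini-Hochberg adjusted p = 0.138) and 0.46 for MAM3 (SE 0.132; adjusted p = 0.0654). MAM1 passed without mutant replicate 1 (0.39, edgeR adjusted p = 7.12e-05) and with no filter on low counts (0.27, adjusted p = 0.0380), and was lower without mutant replicate 3 (0.13, adjusted p = 0.400) and without wild type replicate 1 (0.18, adjusted p = 0.763). MAM3 passed without mutant replicate 3 (0.49, edgeR adjusted p = 0.0220), with no filter (0.46, adjusted p = 0.0283) and with library totals (0.50, adjusted p = 0.0405).

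The core synthesis enzymes held the 2 clearest changes. CYP83A1 (chr4:7990429-7992429, minus strand), the P450 that oxidises the aldoximes made from elongated methionine, had wild-type levels of 36.7 and 45.0 CPM and mutant levels of 75.8 and 80.2 CPM. The gap between the groups was larger than the spread within either. CYP83A1 rose by 0.93 on the log2 scale (SE 0.10, 2 libraries per genotype; edgeR, Benjamini-Hochberg adjusted p = 7.11e-06). It was the one gene of the 10 that passed with each library left out in turn, with log2 fold changes of 0.79 to 1.09.

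CYP79F1 (chr1:5608682-5612064, plus strand), the P450 that turns elongated methionine of short and long chains into aldoximes, had wild-type levels of 11.4 and 13.6 CPM and mutant levels of 19.9 and 28.5 CPM in replicates 1 and 3. Both mutant libraries were above both wild-type libraries, and replicate 3 was well above replicate 1. The log2 fold change was 0.96 (SE 0.163; edgeR, Benjamini-Hochberg adjusted p = 0.00163). It passed in 3 of the 4 fits with a library left out and missed without wild type replicate 1 (0.84, adjusted p = 0.0543).

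CYP79F2 (chr1:5605044-5607498, plus strand), its tandem copy, acts on long-chain methionine derivatives. Its libraries had wild-type levels of 10.2 and 11.6 CPM and mutant levels of 14.8 and 14.3 CPM, which kept the groups apart. Its log2 fold change was 0.41 (SE 0.159, 95% interval 0.08 to 0.75; edgeR, Benjamini-Hochberg adjusted p = 0.200).

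FMO GS-OX1 (chr1:24498954-24502776, minus strand), a flavin monooxygenase that adds oxygen to the sulfur of the finished side chain, was the only gene of side-chain modification among the 10. Its libraries had wild-type levels of 3.38 and 5.30 CPM and mutant levels of 5.39 and 8.23 CPM. The groups were separated by the narrow gap between wild type replicate 2 and mutant replicate 1. The log2 fold change of 0.65 had an SE as wide as 0.269 (edgeR, Benjamini-Hochberg adjusted p = 0.248), and it moved by more than 1.5 times with 3 of the libraries. It was 1.02 when wild type replicate 2 was dropped (edgeR adjusted p = 0.179), 0.37 for wild type replicate 1 (0.817) and 0.31 for mutant replicate 3 (0.645), and without mutant replicate 1 it passed (0.92, adjusted p = 0.0175).

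**Figure D2:**
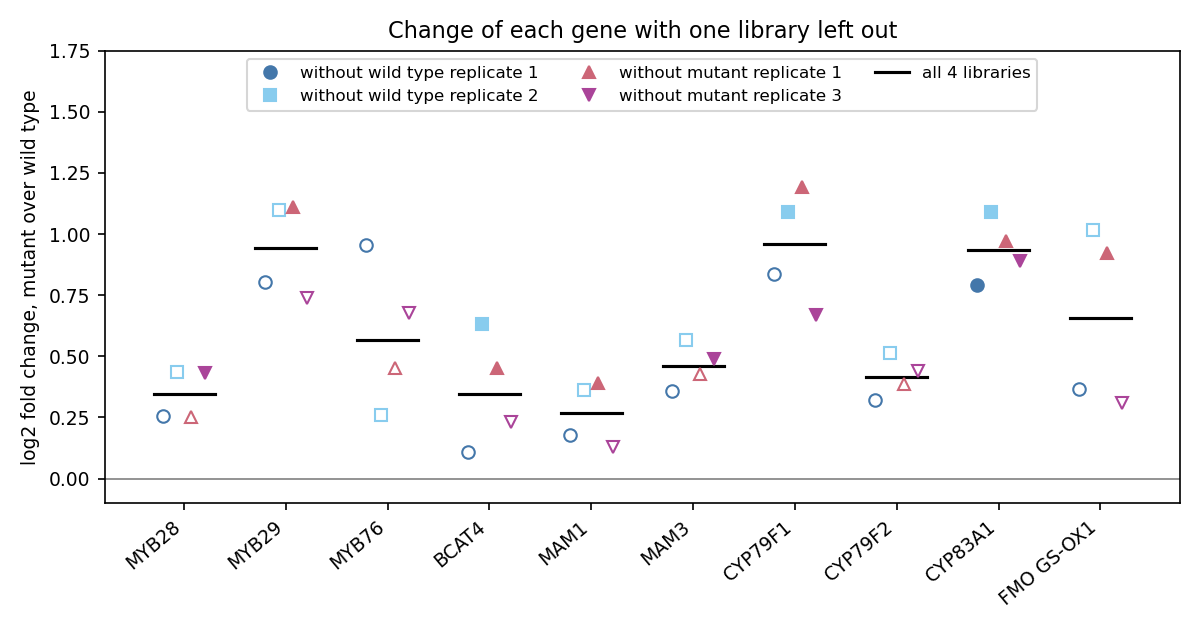
Log2 fold change of each gene, mutant over wild type, with all 4 libraries (black bar) and with 1 library left out (markers, filled where the Benjamini-Hochberg adjusted p from edgeR was under 0.05). Every value is above 0, CYP83A1 is filled under all 4, and BCAT4 and MYB76 spread the most relative to their size.

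The order of the 2 libraries within each genotype was read for the 10 genes, and its share over all genes tested was not computed. Wild type replicate 2 was above wild type replicate 1 for 9 genes, all but MYB76. Mutant replicate 3 was above mutant replicate 1 for 6 genes, and below it for MYB28, MYB76, MAM3 and CYP79F2. The number of genes that passed followed which library was absent. It was 1 without wild type replicate 1, where 0.4% of all genes were called higher, and 3 without wild type replicate 2, where 0.76% were. It was 6 without mutant replicate 1, with 2.47% of all genes called higher, and 4 without mutant replicate 3, with 4.25%. With all 4 libraries, RLE size factors called 3 of the 10 higher (1.7% of all genes), library totals 4 (2.48%), no filter on low counts 5 (2.35%), a filter of 1 CPM in 2 libraries 3 (1.83%) and DESeq2 2 (1.47%). In the fits with 3 libraries the lone library of a genotype is assumed to vary like the other pair.

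The order of the levels was set per kilobase of exon. In wild type MAM1 was highest at 49.7 CPM per kb, followed by CYP83A1 at 21.4 and BCAT4 at 19.2, whose libraries overlapped. MYB28 at 12.5, MAM3 at 8.99, CYP79F2 at 5.40 and CYP79F1 at 3.81 CPM per kb followed with no overlap between neighbours. FMO GS-OX1 at 2.502 and MYB29 at 2.14 CPM per kb overlapped, and MYB76 was lowest at 0.250. In the mutant CYP83A1, at 40.9 CPM per kb, no longer overlapped BCAT4, at 24.4. CYP79F1, at 7.39 CPM per kb, overlapped CYP79F2, at 7.21, and MYB29 and FMO GS-OX1 again overlapped each other. The exon model of CYP79F1 spans 3272 bases in 2 blocks against 2018 bases in 3 blocks for CYP79F2, which lowers its value per kb.

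CYP79F1 and CYP79F2 lie on chromosome 1 with 1183 bases between them, and they were 90.0% identical over the 1348 bases of a local alignment of their exon sequences. The longest identical run is shown because a fragment from within it cannot be assigned to a copy by sequence. It holds 100 bases, here with its flanks, read from the plus strand of RefSeq TAIR10.1 at chr1:5609956-5610075 for CYP79F1 and chr1:5606388-5606507 for CYP79F2, and the letters that differ between the copies are in capitals.
CYP79F1: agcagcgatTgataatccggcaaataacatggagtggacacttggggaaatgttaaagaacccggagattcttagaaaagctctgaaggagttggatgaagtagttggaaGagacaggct
CYP79F2: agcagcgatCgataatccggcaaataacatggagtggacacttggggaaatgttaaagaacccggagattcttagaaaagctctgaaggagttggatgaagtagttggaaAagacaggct
Runs of this kind are rare, and 54 of the 50-base windows of each exon model occur in the other, 1.68% of those of CYP79F1 and 2.74% of those of CYP79F2. MAM1 and MAM3, with 11144 bases between them on chromosome 5, were 84.9% identical over 1461 aligned bases. Their longest identical run was 30 bases and they shared no window of 50.

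With the counts of both copies summed, which does not depend on how fragments were split, CYP79F1 and CYP79F2 together had wild-type levels of 21.5 and 25.2 CPM and mutant levels of 34.7 and 42.8 CPM. The sum rose with a log2 fold change of 0.73 (SE 0.123; edgeR, Benjamini-Hochberg adjusted p = 0.00143), and without wild type replicate 1 it missed (0.62, adjusted p = 0.0670). MAM1 and MAM3 together had wild-type levels of 111 and 126 CPM and mutant levels of 135 and 156 CPM. That sum, at 0.30 on the log2 scale with SE 0.0876, did not pass (edgeR, Benjamini-Hochberg adjusted p = 0.0732). It passed with library totals (0.33, adjusted p = 0.0360), with no filter on low counts (0.30, adjusted p = 0.0127) and without mutant replicate 1 (0.40, adjusted p = 2.12e-05), and was lower without mutant replicate 3 (0.18, adjusted p = 0.136).

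Within the pairs the balance of the copies was compared per kilobase. CYP79F1 stood at 0.690 and 0.718 of the level of CYP79F2 in wild type and at 0.827 and 1.23 in mutant replicates 1 and 3. The ratio was higher in both mutant libraries, and most of that difference came from mutant replicate 3 (exact permutation p = 0.333, the smallest possible). MAM1 stood at 5.58 and 5.49 times MAM3 in wild type and at 4.30 and 5.40 times in the mutant, a lower ratio in both mutant libraries, with mutant replicate 3 close to wild type (exact permutation p = 0.333).

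Promoters were read from RefSeq TAIR10.1 as the 250 bases before to the 50 bases after each annotated start. They were searched on both strands for ACCTAAC and ACCAAAC, AC elements bound by R2R3-MYB factors, and for CACGTG, the G-box bound by MYC factors. Of the 10 promoters, 1 held ACCTAAC (FMO GS-OX1), 0 held ACCAAAC and 1 held CACGTG (CYP83A1), against 2.88%, 9.9% and 7.68% of the promoters of 27443 protein-coding genes. The related AC elements ACCTACC and ACCAACC were searched after the promoters had been read. ACCTACC was in 3 of the 10, those of CYP79F1, CYP79F2 and CYP83A1, and in 1.38% of all promoters, and ACCAACC was in 0 of the 10 and 3.29% of all. The 3 that hold ACCTACC are the core synthesis genes, of which 2 are tandem copies and share ancestry. Because ACCTACC was chosen after reading these promoters, its share among them is no test. Any of the 5 motifs was in 4 of the 10 and in 22.6% of all promoters. ACCTAAC or ACCAAAC was in 1 of the 10 and in 12.5% of all. The promoters that hold a match are shown with the motifs in capitals, each written along the strand of its gene.
CYP79F1 (chr1:5608432-5608731, plus strand): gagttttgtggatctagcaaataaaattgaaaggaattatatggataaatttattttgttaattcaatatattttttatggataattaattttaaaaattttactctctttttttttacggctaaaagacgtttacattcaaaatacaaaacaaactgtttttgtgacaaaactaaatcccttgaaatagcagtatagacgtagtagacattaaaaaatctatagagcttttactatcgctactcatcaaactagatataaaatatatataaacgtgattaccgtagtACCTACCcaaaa
CYP79F2 (chr1:5604794-5605093, plus strand): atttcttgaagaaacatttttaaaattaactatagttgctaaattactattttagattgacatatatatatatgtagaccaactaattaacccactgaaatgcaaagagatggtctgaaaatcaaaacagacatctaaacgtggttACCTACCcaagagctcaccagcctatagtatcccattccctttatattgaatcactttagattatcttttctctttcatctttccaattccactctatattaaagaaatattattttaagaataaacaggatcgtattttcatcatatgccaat
CYP83A1 (chr4:7992380-7992679, minus strand): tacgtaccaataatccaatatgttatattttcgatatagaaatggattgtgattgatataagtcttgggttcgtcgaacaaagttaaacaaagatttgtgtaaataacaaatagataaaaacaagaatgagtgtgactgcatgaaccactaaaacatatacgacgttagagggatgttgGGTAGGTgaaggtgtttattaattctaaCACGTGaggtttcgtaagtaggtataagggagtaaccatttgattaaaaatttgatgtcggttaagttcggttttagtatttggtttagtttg
FMO GS-OX1 (chr1:24502727-24503026, minus strand): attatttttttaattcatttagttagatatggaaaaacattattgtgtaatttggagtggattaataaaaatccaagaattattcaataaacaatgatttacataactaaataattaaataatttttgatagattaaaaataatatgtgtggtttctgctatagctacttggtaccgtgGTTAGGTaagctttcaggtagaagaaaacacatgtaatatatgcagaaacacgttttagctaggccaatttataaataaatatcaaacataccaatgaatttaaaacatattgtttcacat
The first base of ACCTACC lies 104 bases before the start in CYP79F2 and, read on the other strand, 71 before it in CYP83A1. In CYP79F1 it lies at position 39 after the start, and 87 bases before a second annotated start that is 125 bases downstream. The G-box of CYP83A1 begins 43 bases before the start, and the ACCTAAC of FMO GS-OX1, on the other strand, 71 before it. A match is a description of these letters, and the promoters of MYB29, which rose, and of the 5 other genes held none of the motifs searched.

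The nearest tested genes on either side of the 10 that do not overlap them were compared for a shared regional shift. Overlapping genes, such as AT3G19700 at BCAT4, were not taken. Of 14 such neighbours 1 was called higher and 0 lower, against 1.68% and 1.33% of all genes tested, and their median log2 fold change was 0.06. Some were thinly counted, such as AT5G23000 and AT1G16420 at wild-type means of 0.38 and 0.82 CPM, which limits what they show. The one called was AT4G13750, named after its values were seen, which lies 2741 bases from CYP83A1 on the other strand and had a log2 fold change of 0.60 (edgeR, Benjamini-Hochberg adjusted p = 0.0306, and 0.144 to 0.219 with wild type replicate 1 or 2 or mutant replicate 1 left out). CYP83A1's other neighbour AT4G13780, 537 bases away, was at 0.06 (adjusted p = 0.802).

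The rest of the aliphatic route was read from a list of 32 other genes, of which 31 were analysed here and 28 tested. The list was not limited to genes that serve this route alone. It too was chosen with earlier results of these data known. Of the 28, 5 rose and 0 fell, against 1.68% and 1.33% of all genes tested. A positive log2 fold change was found for 24, against 50.1% of all genes tested, and the median was 0.30. Both mutant libraries were above both wild-type libraries for 21 of the 28, against 22.3% of all genes tested. All 5 genes that rose belong to chain elongation (3 of 7) and core synthesis (2 of 7). None of 5 side-chain genes, 2 genes of sulfate activation, 2 transporters and 5 regulators passed.

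In chain elongation, IPMI-SSU3 (AT3G58990), a small subunit of the isomerase that works after the MAM enzymes, had wild-type levels of 10.04 and 11.98 CPM and mutant levels of 20.5 and 18.96 CPM, with log2 fold change 0.84 (edgeR, Benjamini-Hochberg adjusted p = 0.00260). IMD1 (AT5G14200), the dehydrogenase of the following step, had wild-type levels of 48.5 and 50.2 CPM and mutant levels of 80.0 and 73.6 CPM, with log2 fold change 0.64 (adjusted p = 0.000203 by edgeR). BASS5 (AT4G12030), which carries the 2-oxo acids into the chloroplast, had wild-type levels of 12.3 and 8.97 CPM and mutant levels of 15.1 and 18.2 CPM, with log2 fold change 0.65 (adjusted p = 0.0445 by edgeR). These 3 genes serve the same route as BCAT4, MAM1 and MAM3, which had smaller log2 fold changes of 0.27 to 0.46 and did not pass. IMD3 and BCAT3, homologues of IMD1 and BCAT4, were at log2 fold changes of 0.00 and -0.01.

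In core synthesis, GSTU20 (AT1G78370), a glutathione transferase, rose from 94.9 and 104 CPM to 133 and 142 CPM, with log2 fold change 0.47 (edgeR, Benjamini-Hochberg adjusted p = 0.00165). GGP1 (AT4G30530), which trims the glutathione adduct, rose from 65.5 and 69.0 CPM to 85.9 and 90.8 CPM, with log2 fold change 0.39 (adjusted p = 0.0112 by edgeR). The 5 other core genes had log2 fold changes from 0.21 (SOT18) to 0.36 (UGT74B1) and did not pass. Both changes were smaller than those of CYP79F1 and CYP83A1, which act before them, although the difference between genes was not tested. Of the 5 genes that rose, IMD1 passed with each library left out in turn. IPMI-SSU3 (edgeR adjusted p = 0.0963) and GSTU20 (0.153) missed when wild type replicate 1 was dropped. GGP1 missed when wild type replicate 1 (0.292) or 2 (0.116) was, and BASS5 when wild type replicate 1 (0.0550), wild type replicate 2 (0.511) or mutant replicate 3 (0.0740) was. BASS5 also missed by DESeq2 (adjusted p = 0.0930).

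Of the other regulators, MYC3 and MYC4, bHLH partners of the MYB factors, had log2 fold changes of -0.14 (SE 0.104; edgeR, Benjamini-Hochberg adjusted p = 0.583) and -0.02 (SE 0.133; adjusted p = 0.979). SDI1, a repressor of aliphatic synthesis under low sulfur, had wild-type levels of 0.779 and 0.793 CPM and mutant levels of 1.93 and 1.84 CPM. Its groups were separate, but its log2 fold change of 1.26, with SE 0.504, did not pass (edgeR, Benjamini-Hochberg adjusted p = 0.230). SDI2, its homologue, was at 0.41 (adjusted p = 0.464) and SLIM1, a factor of the sulfur response, at 0.09 (adjusted p = 0.828). AOP3 had 0 counts in every library, which allows up to 0.0996 to 0.128 CPM. MYC2 and GSTF11 are also listed at 0, but 98.5% and 100% of their exon bases lie over a gene on the other strand. Per the file headers the counting used neither strand nor an option for fragments that overlap several genes, so the 0 of these 2 genes sets no limit on their level.

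**Figure D3:**
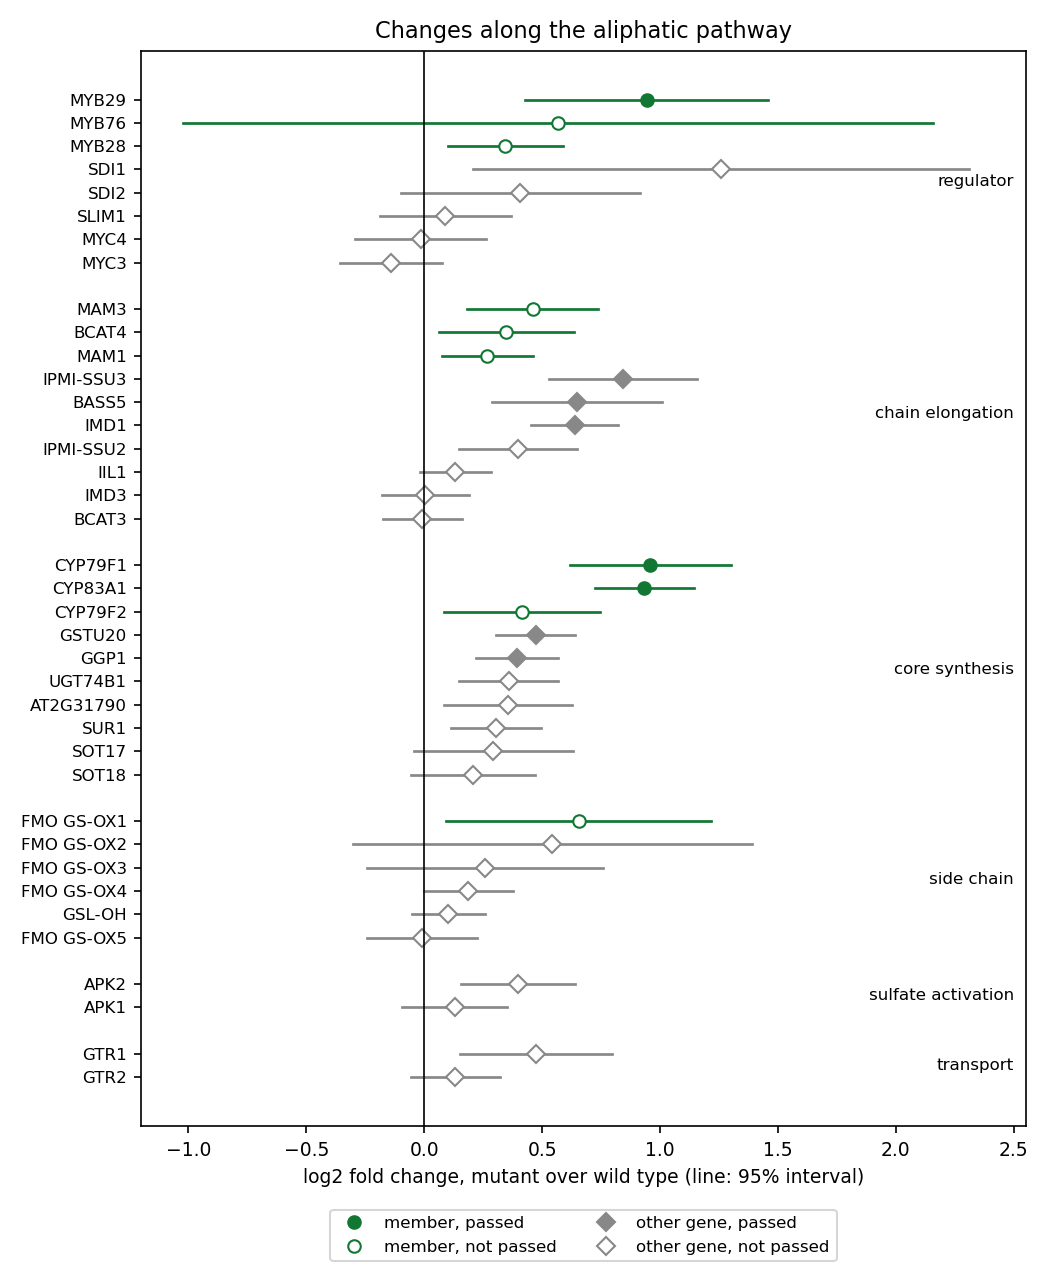
Log2 fold change, mutant over wild type, with its 95% interval for the 10 genes (green circles) and the 28 other tested genes of the aliphatic route (grey diamonds), grouped by role, filled where edgeR's Benjamini-Hochberg adjusted p was under 0.05. The filled points lie in the regulator, chain elongation and core synthesis groups, all to the right of 0.

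Introns of the 10 genes gave a second readout. The authors' intron score covered 33 introns in 9 of the genes, BCAT4 having none in that table. Of the 33, 1 is a stretch of 9 bases in MYB76 that ends in GT and was at 0 in every column. Above 0 in at least 1 of the 4 score columns were 28 introns. The columns are named by genotype, 2 each, and their names tie them to no library. The score proved to be the mean read depth over the intron times 1 factor per column. That factor was 12.9 and 12.5 in wild-type columns 1 and 2, and 12.7 and 10.1 in mutant columns 1 and 2. These run in the reverse order of the totals of wild type replicates 1 and 2 and mutant replicates 1 and 3. By that order mutant column 2 goes with mutant replicate 3, the deepest library, which the labels do not state. None of the 28 passed limma's test on log2(score + 1), and neither did any of the 41390 introns tested, 0% of them, although 739 had an unadjusted p under 0.05. With mutant column 1 left out, a single mutant column remains, and an intron at 0 in both wild-type columns has no spread of its own. The most covered introns of MYB29 and MYB76 are of this kind, at log2 differences of 5.95 and 4.28 in that fit. It therefore cannot decide whether they differ. Of the 28, 19 had a positive and 9 a negative difference. Both mutant columns were above both wild-type columns for 3, against 12.2% of all introns tested, and below them for 4, against 9.69%.

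The only intron of CYP83A1 was the most covered of them, and it went the other way from the gene's count. Its mean depth was 14.8 and 10.6 reads per base in the wild-type columns and 8.01 and 7.16 in the mutant columns. Both mutant columns were below both wild-type columns, while the gene's exon counts were 1.91-fold higher in the mutant. The log2 difference of the score was -0.89 (SE 0.633, limma, Benjamini-Hochberg adjusted p = 0.6245), and -1.82 relative to the gene's mean level in each genotype (SE 0.860, adjusted p = 0.773). The intron is shown along the minus strand of RefSeq TAIR10.1 (chr4:7991306-7991397), with its GT and AG ends in capitals.
CYP83A1 intron: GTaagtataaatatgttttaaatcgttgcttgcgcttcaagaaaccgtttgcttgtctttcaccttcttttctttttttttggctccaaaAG
MAM1 intron: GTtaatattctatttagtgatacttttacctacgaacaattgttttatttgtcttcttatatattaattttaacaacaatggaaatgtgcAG
The second sequence is the most covered of the 8 introns of MAM1 (chr5:7706141-7706232, plus strand). Its depth was 5.43 and 21.2 reads per base in the wild-type columns and 3.65 and 2.09 in the mutant columns. It too was lower in both mutant columns, with a wild-type spread wider than the gap, a log2 difference of -2.09 and its SE 0.974 (limma, Benjamini-Hochberg adjusted p = 0.6245).

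The most covered introns of the other genes were thinly read. In MYB28 the score was 67.6 and 25.0 in the wild-type columns against 34.2 and 56.7 in the mutant columns, which overlapped. In MYB29 the intron at 2447223 to 2447318 of chromosome 5 was above 0 in mutant column 2 alone, at a depth of 6 reads per base. The introns of MYB76 and MAM3 were likewise highest in that column, at 1.82 and 12.3. These depths are unscaled, and the mean over all introns was 2.42 in that column against 1.83 to 1.94 in the others. By score, which holds the factor of each column, MYB29, MYB76 and MAM3 were at 60.7, 18.4 and 124 there. That of CYP79F2 overlapped between genotypes, and those of CYP79F1 and FMO GS-OX1 were above 0 in 1 wild-type column alone. The retained-intron table held 1 event of the 10 genes, an intron of 194 bases in MAM1 (chromosome 5, 7706444 to 7706637). In the authors' deposited table its inclusion level was 0.084 and 0.032 in one numbered group and 0.044 and 0.072 in the other, with a false discovery rate of 0.948, and that table does not name the genotypes.

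**Figure D4:**
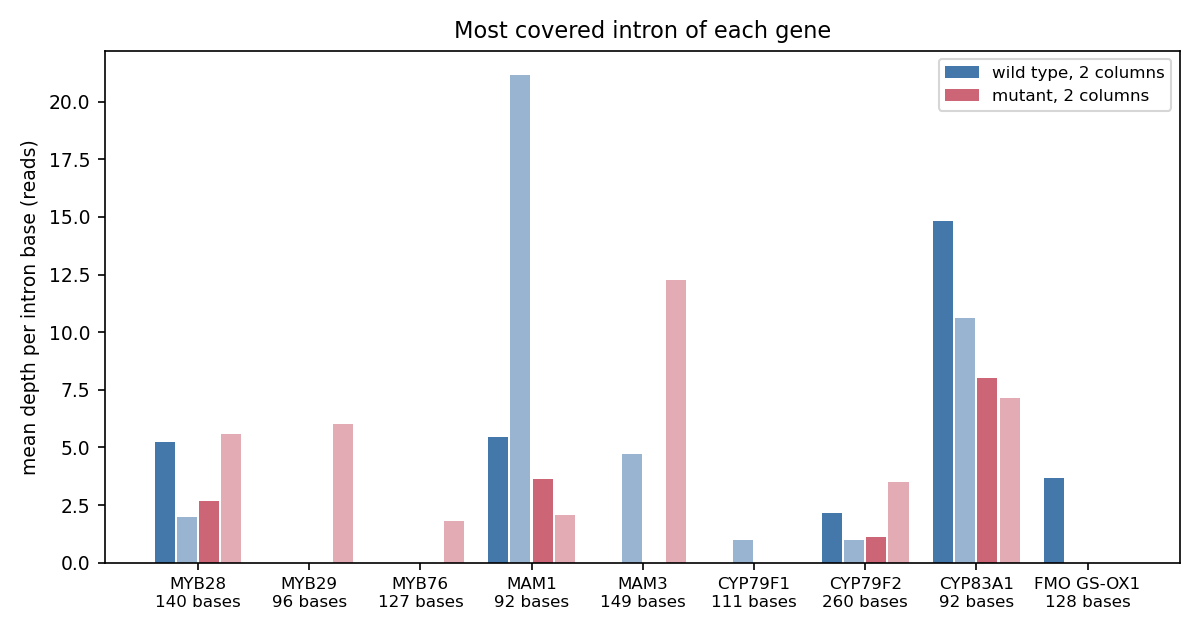
Mean read depth per base over the most covered intron of each gene that has introns in the score table, with 2 wild-type columns (blue) and 2 mutant columns (red), shades marking the columns. Depths are unscaled, and the mean over all introns was 2.42 in mutant column 2 against 1.83 to 1.94 in the other columns. CYP83A1 and MAM1 are lower in both mutant columns, and the other introns overlap or are above 0 in few columns.

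The authors' deposited table of DESeq2 results held all 10 genes, and its log2 fold changes differed from those above by at most 0.00682. By the authors' deposited table, CYP79F1 and CYP83A1 alone of the 10 had an adjusted p under 0.05 (0.000407 and 1.92e-11), among 510 such genes of 13211 with an adjusted p. The authors' deposited table gives no adjusted p for MYB29, MYB76 and FMO GS-OX1, the 3 least abundant of the 10.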

How the data were processed

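The authors deposited raw counts per gene. Per the file headers, paired reads over exons were counted by featureCounts 2.0.1 with no strand option. The submitters' processing notes name the aligners STAR 2.7.9a and HISAT2 2.2.0, as well as DESeq2 1.30.1 and the TAIR10 build. Which aligner served which table is not stated in these sources. Exon lengths, another kind of value (other), were deposited with the counts. The authors' deposited DESeq2 table holds a mean scaled signal, log2 fold changes, a test score and p-values. Their retained-intron table holds other values (read counts and inclusion levels), a difference score and p-values. The deposited intron table holds a coverage signal per intron and column. How it was made is not stated, and score times length came out whole (within 0.02) after division by a factor of its column for 99.9858% or more of the introns above 0. Another 8 columns of per-sample values were not used.

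The count fit used edgeR 4.0.16 in R 4.3.3 (filterByExpr, TMM, glmQLFit and glmQLFTest, genotype as the only term, all 4 libraries), with Benjamini-Hochberg adjustment at 0.05. Depth was 23436163 to 30105517 counts per library, and 3 counts were taken as the floor, which covers counting error only. Intron scores were tested with limma 3.58.1 (eBayes with trend, pseudocount 1) where above 0 in at least 1 column. On simulated counts of 20483 genes edgeR found 70% of the genes set to change 1.5-fold, 68% at 2-fold and 96% at 4-fold, and 6 of its 159 calls were false. Each simulated gene had the spread of the fitted trend, equal in both genotypes, whereas the real mutant replicates differed more. These shares therefore do not measure the power or error rate of the real test. Sequences came from RefSeq TAIR10.1 with Python 3.11.15, after 97.0% of 2000 sampled introns were checked to have GT or GC at the donor and AG at the acceptor. Starts and ends of the 10 genes were the same in both annotations.

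Alternatives were other normalization, filters on low values, DESeq2 1.42.0, intron pseudocounts and each library or column left out. The 10 genes and all lists were chosen with earlier results of these data known. The genes named are the 10, MAC3B, each listed pathway gene past the threshold, the listed regulators and the most covered intron of each gene. Others are given for their role or, where stated, for their values.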

Additional observations from a re-analysis of the deposited data

How the results depend on the processing

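All 10 log2 fold changes stayed above 0 under every alternative that tested the gene, and CYP83A1 passed under each. With no filter on low counts 1090 genes, 5 of the 10 and 10 other pathway genes passed, and with library totals 9 other pathway genes did, 72.3% of all called genes then being higher against 55.9%, with a median shift of 0.04. With 1 library left out, 135 to 1848 genes passed, 1 to 6 of the 10 higher, 1 to 10 other pathway genes higher and 0 to 1 lower (MYC3, without mutant replicate 3). A filter of 1 CPM in 2 libraries dropped MYB76. For the 9 genes with both mutant libraries above both wild-type libraries, leaving out 1 library could hardly turn the sign. Introns passing numbered 4 among those above 0 in all 4 columns, 7 with no filter and 0 to 7356 with 1 column left out, the highest without mutant column 1, where 7 of the 28 introns of the glucosinolate genes passed.

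Directions turned for 3 of the named introns. With a column left out, MYB28 ranged from -0.61 to 0.79, CYP79F2 from -0.39 to 0.89 and MAM3 from -2.95 to 4.02 on the log2 scale, with -0.30 (CYP79F2, without wild-type column 2), -0.26 (MYB28, without mutant column 2) and -2.42 (MAM3, without wild-type column 1) among them. Relative to the host gene's level MYB28 was at -0.25 and CYP79F2 at -0.16. The cause was not tested. No paired analysis was possible because the genotypes share 1 replicate number. The replicate numbers are those of the sample titles. The count columns number the wild-type samples differently, so which number is shared depends on the label used. Counts near the floor limit MYB76, and depths of a few reads limit most introns.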

Other observations

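The enzymes that break glucosinolates down were measured as marker genes of guard and myrosin cells. TGG2 (AT5G25980), a myrosinase, fell from 136 and 140 CPM in wild type to 75.9 and 79.6 CPM in the mutant, or -0.83 on the log2 scale (SE 0.0793) (edgeR, Benjamini-Hochberg adjusted p = 1.48e-06, n = 2 per genotype). TGG1 (AT5G26000), the more abundant myrosinase, fell from 1546 and 1827 CPM to 1220 and 1459 CPM, with log2 fold change -0.33 (SE 0.0860, edgeR, adjusted p = 0.0387). TGG2 passed with each library left out, and TGG1 missed when wild type replicate 1 (0.144) or 2 (0.673) was dropped, with library totals (0.0573) and by DESeq2 (0.522). FAMA, the factor that specifies these cells, had wild-type levels of 18.7 and 20.8 CPM and mutant levels of 19.4 and 17.4 CPM, which overlapped, with a log2 fold change of -0.11 (adjusted p = 0.779).

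Of 10 genes of the indolic branch, 2 rose and 0 fell, against 1.68% and 1.33% of all genes tested, with a median log2 fold change of 0.26. Both mutant libraries lay above both wild-type libraries for 6 of these 10, and below them for 1, against 22.3% and 22.4% of all genes tested. CYP79B2, which turns tryptophan into its aldoxime, rose from 101 and 110 CPM to 122 and 142 CPM (log2 fold change 0.32, edgeR, Benjamini-Hochberg adjusted p = 0.0476). GSTF9, a glutathione transferase, rose from 375 and 416 CPM to 463 and 501 CPM (log2 fold change 0.29, edgeR, adjusted p = 0.0411). Both missed when wild type replicate 1 (0.552 and 0.651) or 2 (0.190 and 0.207) was dropped, and CYP79B2 also when mutant replicate 3 was (0.0936) and by DESeq2 (0.0540). The indolic activators MYB34, MYB51 and MYB122 had log2 fold changes of -0.19, 0.03 and 0.62 and did not pass, the smallest edgeR adjusted p among them being 0.360. The difference between the branches was not tested, and the indolic list too was chosen with earlier results of these data known.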
